A study of Mus musculus with 20 samples.

Results

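The genes described here are 40 cell cycle genes of cultured mouse muscle cells, chosen by symbol as a readout of cells that were still dividing in differentiated cultures. All 40 were found among the 26722 genes of the count table, and all 40 were among the 14605 genes with enough counts to be tested. They fall into a replication group of 18 genes, which license and fire replication origins, supply nucleotides or drive entry into S phase, and a mitotic group of 22 genes, which act in G2 phase and mitosis. Their levels were followed over 5 treatments, and between the libraries of replicates 1-2 and those of replicates 3-4.

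C2C12 is a mouse myoblast line whose cells leave the cell cycle and fuse into multinucleated myotubes when serum is lowered. Cultures were differentiated for 5 days and treated for 16 h, and total RNA was sequenced after removal of ribosomal RNA in 20 libraries, 4 biological replicates per treatment. The control group received 7.7 nM of b12, a human IgG4 antibody that served as negative control. The bivalent 13-3B5 group received 7.7 nM of 13-3B5, described as an activating antibody against MuSK, the receptor tyrosine kinase of the neuromuscular synapse. The agrin group received 0.1 nM of neural agrin, the natural activator of MuSK, plus 7.7 nM of b12. The remaining groups received 0.1 nM of neural agrin plus 7.7 nM of either 13-3B5xb12 or 11-3F6xb12, monovalent antibodies described as inhibiting MuSK. Every group was of the same cell line and received an antibody. The labels do not say whether replicates of one number share a culture, so p-values measure the spread between these libraries, which may be technical.

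A dividing cell first loads the MCM helicase onto replication origins and makes nucleotides and the DNA clamp PCNA, under the control of E2F factors. It then builds up mitotic cyclins, kinases, kinetochore proteins and spindle motors, many of whose promoters carry CCAAT boxes and a cell cycle homology region (CHR) through which they are kept silent in resting cells. Myotubes have left the cycle for good, whereas C2C12 cultures keep some unfused mononucleated cells, known as reserve cells, beside them.

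Promoter sequences of 6 members are shown as examples of the 11 that differed between the replicate sets described further on, chosen after their values were seen. Cenpf, Kif11 and Cdc20 are 3 of the 8 that were lower in replicates 3-4, and Mcm6, Mcm3 and Rrm2 are the 3 that were higher. Each sequence is the 150 bases before the RefSeq transcription start on GRCm38.p6, written 5′ to 3′ in the direction of the gene. Capitals mark every match, on either strand, to the CHR (TTTGAA), the CCAAT box (CCAAT) or the E2F sites TTTCCCGC, TTTGGCGC, TTTCGCGC and TTTGCCGC, and matches may overlap. Cenpf encodes a kinetochore protein, and its window is on the minus strand at chr1:189688087-189688236. Kif11 encodes a spindle motor, with its window on the plus strand at chr19:37376232-37376381. Cdc20 encodes an activator of the anaphase-promoting complex, with its window on the minus strand at chr4:118437344-118437493. Mcm6 and Mcm3 encode subunits of the replicative helicase, with windows on the minus strand at chr1:128359706-128359855 and chr1:20820313-20820462. Rrm2 encodes the small subunit of ribonucleotide reductase, with its window on the plus strand at chr12:24708104-24708253.
Cenpf: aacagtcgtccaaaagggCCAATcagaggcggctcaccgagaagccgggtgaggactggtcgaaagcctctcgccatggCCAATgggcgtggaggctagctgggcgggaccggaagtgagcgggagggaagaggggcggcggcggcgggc
Kif11: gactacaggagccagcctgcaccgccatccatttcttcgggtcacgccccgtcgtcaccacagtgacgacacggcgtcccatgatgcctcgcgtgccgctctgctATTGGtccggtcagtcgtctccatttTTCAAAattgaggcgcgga
Cdc20: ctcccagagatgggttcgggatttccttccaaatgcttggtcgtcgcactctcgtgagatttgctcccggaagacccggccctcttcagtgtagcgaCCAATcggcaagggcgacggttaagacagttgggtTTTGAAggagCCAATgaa
Mcm6: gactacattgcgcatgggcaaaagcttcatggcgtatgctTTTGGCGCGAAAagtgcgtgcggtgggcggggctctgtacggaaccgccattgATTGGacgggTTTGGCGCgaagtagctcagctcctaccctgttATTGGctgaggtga
Mcm3: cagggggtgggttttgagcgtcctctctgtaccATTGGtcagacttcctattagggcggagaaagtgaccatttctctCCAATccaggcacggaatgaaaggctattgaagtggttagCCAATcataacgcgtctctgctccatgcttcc
Rrm2: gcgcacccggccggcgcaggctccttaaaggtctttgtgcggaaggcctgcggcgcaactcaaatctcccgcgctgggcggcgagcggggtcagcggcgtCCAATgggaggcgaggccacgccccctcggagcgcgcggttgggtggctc

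RefSeq promoter windows were found for 31 of the 40 members, 16 mitotic and 15 replication genes, and the 250 bases before the start were searched in each. The CHR was present in 6 of 16 mitotic and 2 of 15 replication windows, against 16.3% of the 27025 windows of all genes. A CCAAT box was present in 14 of 16 mitotic and 10 of 15 replication windows, against 34.5% of all windows. An E2F site was present in 1 of 16 mitotic and 4 of 15 replication windows, against 1.91% of all windows. A CHR together with at least 2 CCAAT boxes was present in 5 of 16 mitotic windows, in 0 of 15 replication windows and in 1.62% of all windows. Of the sequences printed above, Cdc20 holds a CHR and 2 CCAAT boxes, Kif11 a CHR and 1 CCAAT box, and Cenpf 2 CCAAT boxes. Mcm6 holds E2F matches and 2 CCAAT boxes, whereas Mcm3 and Rrm2 hold CCAAT boxes and none of the E2F letters searched. Of the 7 mitotic genes lower in replicates 3-4 that have a window, Cdc20 and Kif11, both printed, are the 2 that hold a CHR, and Ccnb1, Cenpe, Cenpf, Nusap1 and Prc1 hold none. The first listed RefSeq start of each gene was used, and GENCODE M21 gene models begin further upstream for some genes. The 150 bases before the RefSeq start lie wholly inside the GENCODE gene for Cdc6, Mcm7 and E2f1, and 134 of them for Pcna. The E2F matches of Cdc6 and Mcm7 are thus inside the GENCODE gene. These are matches of letters in the reference, not measured binding.

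Libraries held between 18424881 and 23343903 counts, of which the 40 members together took 12492 to 21597, or 0.0600% to 0.0976%. Levels are given in CPM, in which each count is divided by its library's total and a trimmed-mean factor so that libraries can be compared, and 3 counts corresponded to 0.125 to 0.161 CPM. Every member was above that floor in every library, and the lowest single value was 6 counts, for Cdc25c. The mitochondrial ribosomal RNA mt-Rnr2 took 27.3% to 35.9% of the counts in replicates 1-2 and 25.4% to 29.8% in replicates 3-4. Agrin replicate 3 carried liver transcripts, 11.6 CPM summed over 7 liver markers against at most 0.633 CPM in any other library, and of these markers Tat was at 0 in all libraries. Control replicate 2 and agrin with 13-3B5xb12 replicate 1 stood apart on a principal component in an earlier analysis of these data, and counts of members are given below with and without these 3 libraries.

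Compared per kilobase of exon, so that genes of different length can be ranked, replication genes held the first 4 places. Pcna, the sliding clamp of DNA polymerases, had the highest mean level over the 20 libraries at 35.2 CPM per kilobase, followed by Rrm2 at 16.7 and Mcm6 at 14.6. Mcm7, another helicase subunit, was at 8.04 CPM per kilobase, the same level as Top2a, the topoisomerase that untangles sister chromatids and the highest of the mitotic genes. The lowest were Foxm1, a transcription factor of the G2 program, at 0.229, and Cdc25c, a phosphatase that activates Cdk1, at 0.216 CPM per kilobase. The annotation used for the exon lengths holds processed pseudogenes of Pcna, Ccnb1 and Tyms, and reads shared with such copies could have been assigned either way.

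In some pairs of similar level, chosen after their values were seen, the mitotic gene varied more from library to library than the replication gene. In other pairs it did not. The coefficient of variation of CPM over the 20 libraries was 8.12% for Pcna at a mean of 84.5 CPM and 23.6% for Top2a at 72.5 CPM. It was 8.24% for Mcm7 at 35.6 CPM and 30.6% for Mki67, a protein that coats mitotic chromosomes, at 39.8 CPM. The largest variation, 48.5% for the mitotic kinase Aurka, 50.9% for the kinase Plk1 and 52.1% for Cdc25c, was in genes counted from few reads. In bulk libraries, fewer dividing cells and less of a transcript in each cell cannot be told apart.

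Values are given next library by library, in the order of replicates 1 to 4, beginning with the genes of mitotic chromosomes. Mki67 was at 36.5, 55.8, 27.7 and 28.6 CPM with b12 alone, 34.1, 40.8, 44.6 and 33.3 with bivalent 13-3B5, 42.8, 59.2, 63.98 and 29.98 with agrin and b12, 57, 33.5, 25.7 and 34.7 with 13-3B5xb12 added to agrin, and 40.9, 54.1, 28 and 25.4 with 11-3F6xb12 added to agrin. Agrin replicate 3 was the highest library and agrin with 11-3F6xb12 replicate 4 the lowest, and each treatment overlapped the ones it was compared with. Top2a was at 77.7, 81.4, 48.2 and 54.6 CPM with b12 alone, 67.97, 76.3, 98 and 68.2 with bivalent 13-3B5, 77.6, 105, 102 and 58.7 with agrin and b12, 82.8, 60.7, 55.4 and 62.3 with 13-3B5xb12 added to agrin, and 75.1, 91.1, 55.1 and 51.6 with 11-3F6xb12 added to agrin. Both genes had agrin replicates 2 and 3 as their highest pair of libraries.

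Among the cyclins, kinases and regulators of mitosis, Cdk1, the kinase that triggers entry into mitosis, was at 18.6, 17, 15.9 and 15.2 CPM with b12 alone, 16.5, 20.9, 17.7 and 20.1 with bivalent 13-3B5, 19.7, 22.5, 24.6 and 13.8 with agrin and b12, 18.8, 16.8, 15.9 and 14.01 with 13-3B5xb12 added to agrin, and 17.4, 23.5, 16.02 and 12.8 with 11-3F6xb12 added to agrin. Its highest library was again agrin replicate 3, and its relative range was narrower than that of its partner cyclin B1. Ccnb1, which encodes that cyclin, was at 7.63, 9.48, 6.08 and 3.71 CPM with b12 alone, 5.86, 10.5, 7.68 and 6.25 with bivalent 13-3B5, 9.59, 11.03, 10.5 and 4.83 with agrin and b12, 10.4, 5.54, 4.54 and 4.496 with 13-3B5xb12 added to agrin, and 8.31, 9.54, 5.01 and 3.89 with 11-3F6xb12 added to agrin. Control replicate 4 was the lowest library for Ccnb1, and in each treatment except bivalent 13-3B5 and agrin both libraries of replicates 3-4 were below both of replicates 1-2.

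For the chromosomal passenger complex and the spindle, Birc5 (survivin), which targets that complex to centromeres, was at 3.81, 3.11, 1.33 and 2.08 CPM with b12 alone, 3.89, 2.82, 2.68 and 3.17 with bivalent 13-3B5, 2.82, 5.96, 4.89 and 1.79 with agrin and b12, 2.65, 2.797, 2.46 and 2.79 with 13-3B5xb12 added to agrin, and 3.19, 2.47, 1.18 and 3.85 with 11-3F6xb12 added to agrin. Agrin replicate 2 was its highest library, and the libraries near 1 CPM were control replicate 3 and agrin with 11-3F6xb12 replicate 3. Kif11, the motor that pushes spindle poles apart, was at 15.8, 20.1, 9.51 and 9.32 CPM with b12 alone, 13.5, 17.3, 16.9 and 11.7 with bivalent 13-3B5, 16.5, 23.99, 20.6 and 12.5 with agrin and b12, 15.6, 15.8, 11.6 and 12.1 with 13-3B5xb12 added to agrin, and 18.98, 24.7, 9.24 and 8.07 with 11-3F6xb12 added to agrin. In the control and in both groups with monovalent antibody, Kif11 was lower in each library of replicates 3-4 than in either of replicates 1-2.

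Among the licensing genes, Mcm5, a helicase subunit, was at 27.3, 22.9, 32.4 and 29.8 CPM with b12 alone, 21.3, 25.1, 35.2 and 27.02 with bivalent 13-3B5, 24.5, 22.2, 37.9 and 24.6 with agrin and b12, 28.96, 23.9, 26.7 and 26.5 with 13-3B5xb12 added to agrin, and 22.3, 30.8, 22.6 and 22.5 with 11-3F6xb12 added to agrin. One library in the agrin group and one in the group with 11-3F6xb12 were well above their 3 partners. Cdc6, which loads the helicase onto origins, was at 4.196, 4.97, 5.32 and 5.34 CPM with b12 alone, 4.37, 3.51, 8.17 and 4.07 with bivalent 13-3B5, 3.77, 2.63, 3.29 and 6.58 with agrin and b12, 4.84, 3.44, 3.27 and 5.37 with 13-3B5xb12 added to agrin, and 3.52, 4.65, 4.33 and 3.64 with 11-3F6xb12 added to agrin. Its highest library was bivalent 13-3B5 replicate 3 and its lowest agrin replicate 2, and treatments overlapped.

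Among the genes of DNA synthesis, Pcna was at 90.7, 70.5, 77.4 and 85.2 CPM with b12 alone, 77.9, 82.2, 89.9 and 84.2 with bivalent 13-3B5, 89.5, 92.5, 92.8 and 85.4 with agrin and b12, 73.7, 80.96, 82.4 and 87.03 with 13-3B5xb12 added to agrin, and 88.4, 91.6, 92.6 and 74.5 with 11-3F6xb12 added to agrin. No library departed far from the others, and treatments overlapped. Rrm2 was at 34.6, 50.4, 52.7 and 47.5 CPM with b12 alone, 38.4, 40.6, 45.6 and 57.1 with bivalent 13-3B5, 46.3, 40.3, 55.7 and 52.4 with agrin and b12, 47.5, 39.97, 50.9 and 48.3 with 13-3B5xb12 added to agrin, and 41, 41.5, 42.6 and 50.05 with 11-3F6xb12 added to agrin. In the bivalent, agrin, agrin with 13-3B5xb12 and agrin with 11-3F6xb12 groups, each Rrm2 value of replicates 3-4 was above both of replicates 1-2, while control replicate 2 was above control replicate 4.

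Of the genes of S phase entry, Ccne1, which encodes cyclin E1, was at 4.77, 4.51, 3.73 and 4.52 CPM with b12 alone, 1.25, 3.14, 4.303 and 2.57 with bivalent 13-3B5, 3.77, 2.86, 5.61 and 3.12 with agrin and b12, 2.83, 2.74, 4.11 and 3.93 with 13-3B5xb12 added to agrin, and 3.91, 3.81, 1.96 and 1.42 with 11-3F6xb12 added to agrin. It was lowest in bivalent replicate 1, and the other bivalent libraries overlapped the rest. E2f1, a transcription factor of S phase genes, was at 2.81, 4.18, 3.73 and 4.03 CPM with b12 alone, 5.04, 3.14, 3.29 and 4.15 with bivalent 13-3B5, 5.04, 5.12, 5.82 and 3.71 with agrin and b12, 6.17, 4.41, 3.605 and 4.32 with 13-3B5xb12 added to agrin, and 2.32, 3.51, 3.32 and 3.39 with 11-3F6xb12 added to agrin. For E2f1 all 4 libraries of agrin with 11-3F6xb12 were below all 4 agrin libraries, and every other pair of treatments compared overlapped.

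**Figure D1:**
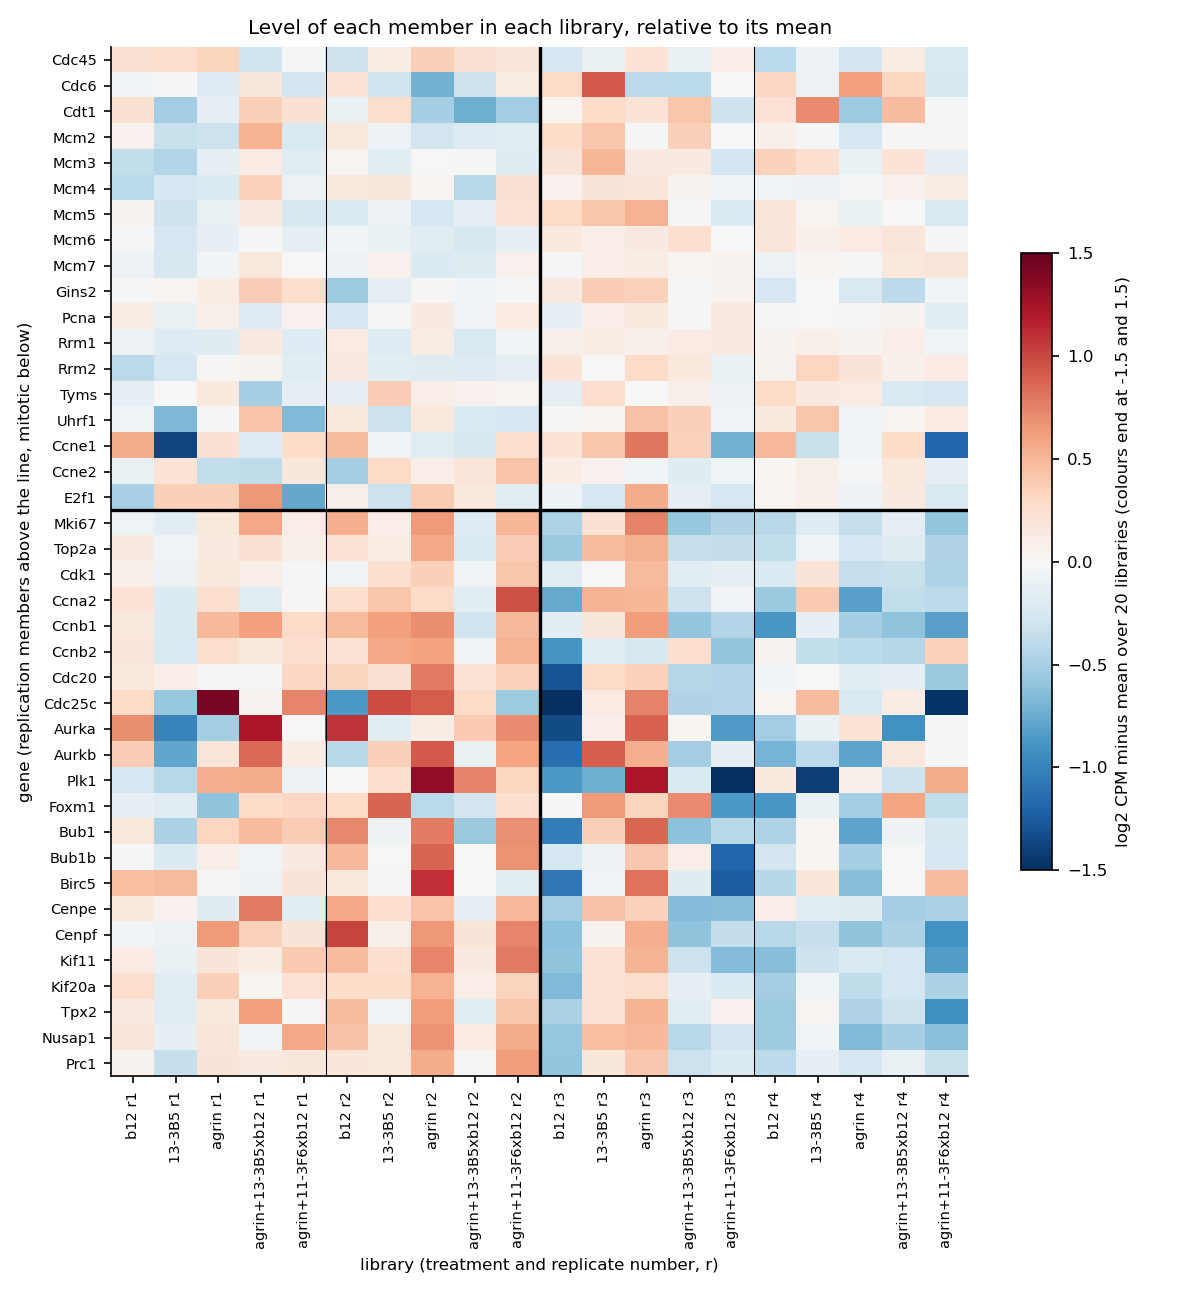
Level of each of the 40 members (rows, replication genes above the thick line and mitotic genes below) in each of 20 libraries (columns, ordered by replicate number), as log2 CPM minus the gene's mean over all libraries, with colours ending at -1.5 and 1.5. Mitotic genes share their light and dark columns, with agrin replicates 2 and 3 high and control replicate 3 low, whereas replication genes mostly show smaller departures.

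Summed over the 22 mitotic genes, the libraries of replicates 1 to 4 were at 291, 343, 183 and 204 CPM with b12 alone, 244, 304, 331 and 259 with bivalent 13-3B5, 307, 406, 389 and 209 with agrin and b12, 328, 253, 213 and 230 with 13-3B5xb12 added to agrin, and 298, 383, 211 and 193 with 11-3F6xb12 added to agrin. Libraries ranged from control replicate 3 to agrin replicate 2, and all treatments overlapped. The treatment means were 255 ± 74.8 CPM (SD, n = 4) in the control, 284 ± 40.2 with bivalent 13-3B5, 328 ± 90.3 with agrin, 256 ± 50.8 where 13-3B5xb12 was added to agrin, and 271 ± 87.4 where 11-3F6xb12 was added. The sum of the 18 replication genes was at 444, 456, 489 and 490 CPM with b12 alone, 403, 444, 519 and 494 with bivalent 13-3B5, 446, 458, 522 and 472 with agrin and b12, 487, 419, 500 and 495 with 13-3B5xb12 added to agrin, and 430, 466, 467 and 448 with 11-3F6xb12 added to agrin. Its treatment means lay between 453 ± 17.3 and 475 ± 38.1 CPM (SD, n = 4), a range smaller than the spread between replicates in 4 of the 5 treatments.

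**Figure D2:**
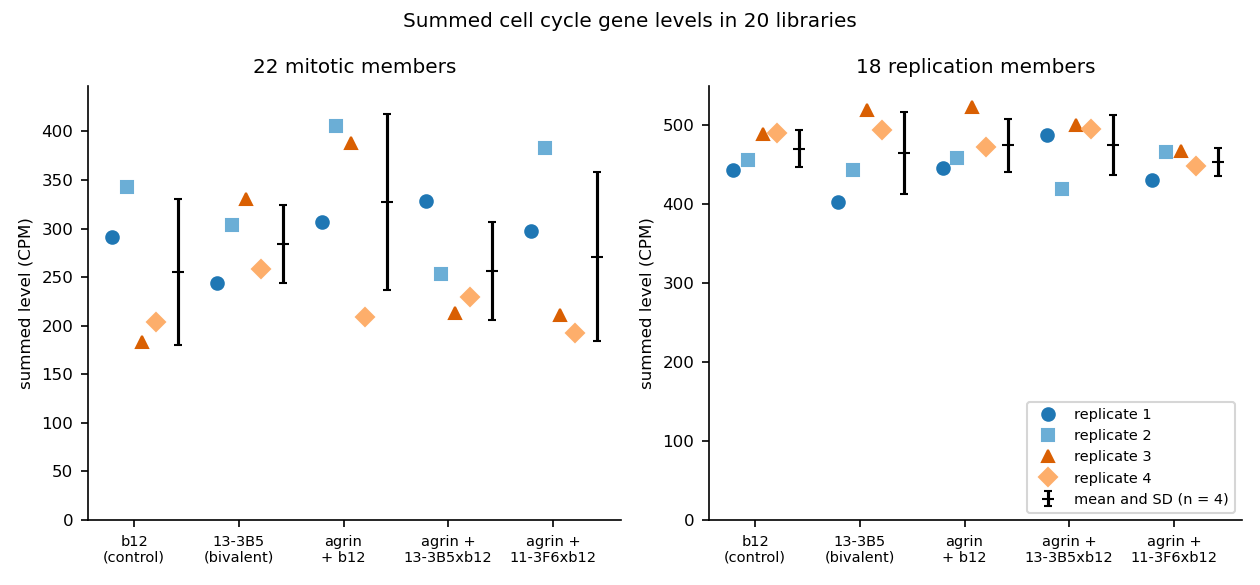
Summed level in CPM of the 22 mitotic members (left) and the 18 replication members (right) in each library, by treatment, with symbols for the replicate number and the mean and SD of 4 libraries in black. The mitotic sum runs from 183 to 406 CPM with overlap between all treatments, and the replication sum runs from 403 to 522 CPM.

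Whether MuSK activation changed these genes was tested by comparing agrin with control. None of the 40 members passed an adjusted p under 0.05 in edgeR's quasi-likelihood test, which 0% of all genes tested passed, and DESeq2 called 0 members as well. At an unadjusted p under 0.05 there were 3 members in edgeR and 4 in DESeq2, against 2.85% of all genes in edgeR and 496 of 14605 in DESeq2. Leaving out single libraries moved the edgeR count between 1, without control replicate 3, and 12, without agrin replicate 4. It was 6 without control replicate 1 or control replicate 2 and 2 without agrin replicate 1, 2 or 3. Shares of all genes at that p are not given for left-out runs, here or in the other comparisons between treatments. Such counts show only how far the number of members moved. Mcm2, a helicase subunit, was at 18.1 ± 1.71 CPM (SD, n = 4) with agrin and 23.3 ± 1.6 in the control, a log2 fold change of -0.36 (SE 0.14, edgeR adjusted p = 1.00). It was the member whose agrin and control libraries did not overlap, as was the case for 1.72% of all genes. Cdc25c was at 1.65 ± 0.70 against 0.73 ± 0.39 CPM, a log2 fold change of 1.16 (SE 0.51), and Plk1 at 1.89 ± 0.72 against 0.89 ± 0.25 CPM, a log2 fold change of 1.07 (SE 0.47), both with an edgeR adjusted p of 1.00. Log2 fold changes were positive in 20 of 22 mitotic genes, with a median of 0.35, and in 10 of 18 replication genes, with a median of 0.03, beside a median of 0.00 over all genes. The median standard error of a mitotic gene was 0.31 in this model, which has no term for the replicate number. Single differences of this size were not detectable in it with 4 libraries against 4.

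Within replicates 1-2 alone, the median log2 ratio of agrin to control over the mitotic genes was 0.18, and within replicates 3-4 it was 0.64. The replication genes gave 0.02 and 0.04. These are values of 2 libraries against 2, with no test. With the replicate number as a block, again 0 members were called, and 7 had an unadjusted p under 0.05, against 3.98% of all genes.

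The bivalent antibody, which activates MuSK without agrin, was compared with the same control libraries. No member was called, as with 0% of all genes in edgeR's test, 0 members had an unadjusted p under 0.05 against 2.77% of all genes, and DESeq2 called 0 members with 0 under an unadjusted 0.05. Leaving out single libraries gave 0 to 2 members under an unadjusted 0.05, with 2 without control replicate 1 or bivalent 13-3B5 replicate 3. The smallest p belonged to Ccne1, at 2.82 ± 1.27 CPM with the antibody and 4.38 ± 0.45 in the control (SD, n = 4), a log2 fold change of -0.64 (SE 0.32). Ccne2, which encodes cyclin E2, had a log2 fold change of 0.27 (SE 0.17) and Ccna2, which encodes cyclin A2, one of 0.45 (SE 0.31), all 3 with an edgeR adjusted p of 0.999. The median log2 fold change was 0.15 over the mitotic genes, of which 18 of 22 were positive, and 0.03 over the replication genes. It was -0.16 for mitotic genes within replicates 1-2 and 0.66 within replicates 3-4. No member's libraries separated the groups, against 1.88% of all genes, and with the replicate number as a block 1 member had an unadjusted p under 0.05, against 3.96%.

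Direct comparison of bivalent 13-3B5 with agrin, which reuses the libraries of both comparisons above, called no member and 0% of all genes in edgeR, and 0 members in DESeq2. At an unadjusted p under 0.05 there was 1 member by each tool, against 2.39% of all genes in edgeR, and leaving out single libraries gave 1 to 3, with 3 without bivalent 13-3B5 replicate 1. That member was Plk1, at 0.75 ± 0.36 CPM with the antibody against 1.89 ± 0.72 with agrin (SD, n = 4), a log2 fold change of -1.33 (SE 0.47, edgeR adjusted p = 1.00). Plk1 was counted from 8 to 57 reads per library. Cdt1, a licensing factor, had a log2 fold change of 0.46 (SE 0.28), and Mcm2 one of 0.24 (SE 0.14). The mitotic median was -0.25 and the replication median 0.00. Within replicates 1-2 and 3-4 the mitotic medians of the log2 ratios of group means were -0.39 and -0.03, each from 2 libraries against 2 and without a test. No member separated the groups, against 2.38% of all genes, and with the replicate number as a block 1 member had an unadjusted p under 0.05, against 3.01%.

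Adding 13-3B5xb12 to agrin called no member, as with 0% of all genes in edgeR, and 0 in DESeq2, with 1 member under an unadjusted p of 0.05 by each tool against 3.83% of all genes in edgeR. Leaving out single libraries gave up to 10 members under that p, without agrin replicate 4, with 5 without replicate 1 of the antibody group and 2 without its replicate 2 or 4. Mcm2 was at 24.2 ± 5.33 CPM with the antibody against 18.1 ± 1.71 with agrin alone (SD, n = 4), a log2 fold change of 0.42 (SE 0.14, edgeR adjusted p = 0.999). Cdk1 had a log2 fold change of -0.30 (SE 0.16), and Pcna one of -0.15 (SE 0.08), both with an edgeR adjusted p of 0.999. Values were negative in 20 of 22 mitotic genes, with a median of -0.37, and the replication median was 0.03. Within replicates 1-2 and 3-4 the mitotic medians, from 2 libraries against 2, were -0.35 and -0.42. With the replicate number as a block 6 members had an unadjusted p under 0.05, against 5.02% of all genes, and 0 were called. No member separated the groups, against 2.31% of all genes.

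Adding 11-3F6xb12 to agrin also called no member and 0% of all genes in edgeR, and 0 members in DESeq2, with 2 members under an unadjusted p of 0.05 by each tool against 3.33% of all genes in edgeR. Leaving out single libraries gave 1 to 5 members under that p, with 5 without agrin replicate 4 and 1 without agrin replicate 1, 2 or 3 or replicate 3 of the antibody group. E2f1 was at 3.13 ± 0.55 CPM with the antibody against 4.92 ± 0.88 with agrin alone (SD, n = 4), a log2 fold change of -0.65 (SE 0.23, edgeR adjusted p = 1.00), and was the member whose groups did not overlap, against 2.90% of all genes. Cdc25c had a log2 fold change of -1.04 (SE 0.51) and Plk1 one of -0.87 (SE 0.46). The mitotic median was -0.27, with 19 of 22 values negative, and the replication median -0.06. Within replicates 1-2 and 3-4 the mitotic medians, from 2 libraries against 2, were -0.10 and -0.59. With the replicate number as a block 3 members had an unadjusted p under 0.05, against 4.83% of all genes. Both comparisons with monovalent antibodies use the agrin libraries, whose replicates 2 and 3 held the highest mitotic sums, so that their values are not independent of each other or of the comparison of agrin with control.

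A test for any difference among the 5 treatments called 0 members and 0% of all genes in edgeR, and 0 members in DESeq2. An unadjusted p under 0.05 was reached by 1 member, Mcm2, in edgeR, against 2.25% of all genes. In DESeq2 it was reached by 3 members and by 488 of 14605 genes. With the replicate number as a block 1 member reached it, against 3.87% of all genes. Of 40 other proliferation genes, 15 inhibitors and pocket proteins and 6 D cyclins and their kinases, none was called in any of the comparisons between treatments. The lists contributed 4, 3 and 0 genes at an unadjusted edgeR p under 0.05 to the comparison of agrin with control, against 2.85% of all genes. In the other comparisons, in the order above, the proliferation genes contributed 0, 0, 7 and 2. The inhibitors and pocket proteins contributed 1, 1, 0 and 1, and the D cyclins and their kinases 0, 0, 0 and 1. The shares of all genes were 2.77%, 2.39%, 3.83% and 3.33%.

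**Figure D3:**
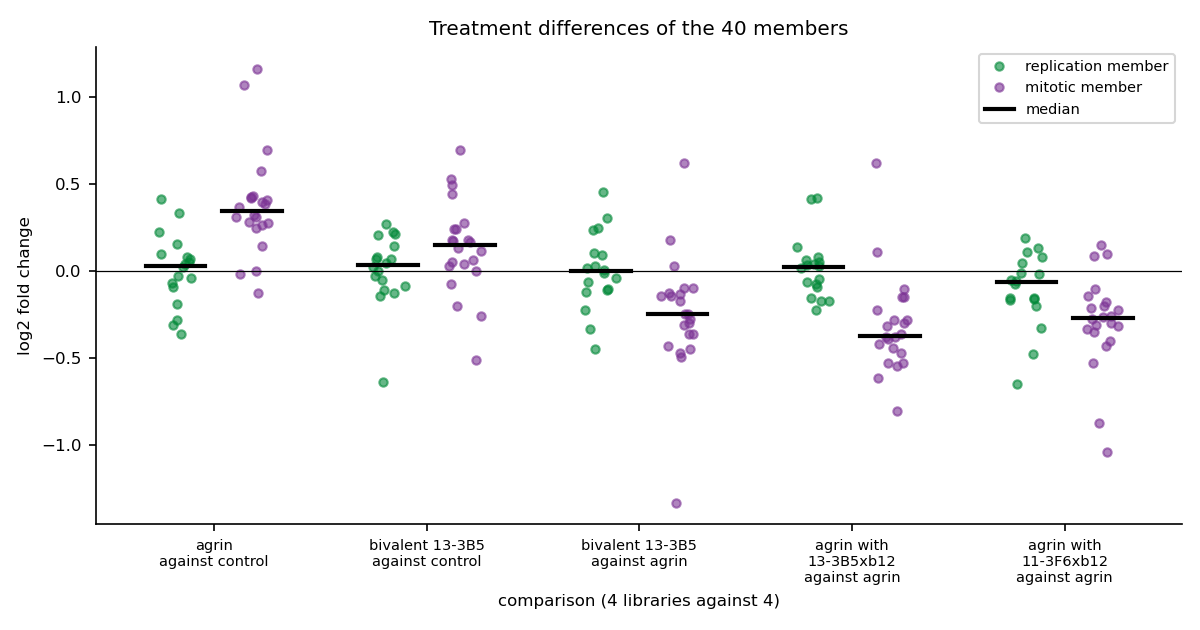
Log2 fold change of each member in the 5 comparisons between treatments (4 libraries against 4), replication genes in green and mitotic genes in purple, with the median of each group as a bar. Mitotic medians are 0.35, 0.15, -0.25, -0.37 and -0.27 from left to right and replication medians lie between -0.06 and 0.03, and no point passed the adjusted threshold.

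The comparison of replicates 3-4 with replicates 1-2, 10 libraries against 10 with treatment in the model, did call members. The split was first seen on a principal component of all genes of these same libraries, and the labels do not say what libraries of one number share. The p-values of this comparison therefore describe these libraries only and may be too small. In edgeR's quasi-likelihood test 11 of 40 members had an adjusted p under 0.05, against 13.1% of all genes. There were 8 of 22 mitotic genes that fell and none that rose, against 7.13% of all genes lower in replicates 3-4. There were 3 of 18 replication genes that rose and none that fell, against 5.93% of all genes higher. At an unadjusted p under 0.05 there were 23 members, against 24.4% of all genes. DESeq2 called 12 members, the same 11 and Ccnb2, and 2184 of all 14605 genes, against 1908 genes in edgeR. All 22 mitotic genes had a negative log2 fold change, with a median of -0.44, and 14 of 18 replication genes a positive one, with a median of 0.12, whereas 48.4% of all genes were negative and their median was 0.01.

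Among the mitotic cyclins, kinases and regulators, Ccnb1 and Cdc20 fell and the other 8 did not pass the test. Ccnb1 ran from 5.54 to 11.0 CPM in replicates 1-2, with a median of 9.51, and from 3.71 to 10.5 in replicates 3-4, with a median of 4.92. Its log2 fold change was -0.65 (SE 0.15, edgeR adjusted p = 0.00263), and it was lower in replicates 3-4 in all 5 treatments. Cdc20 ran from 6.21 to 10.7 CPM, median 7.32, against 2.56 to 8.01, median 5.65. The ranges of both genes overlapped, as did those of every member, since 0 members and 1.68% of all genes separated the 10 libraries from the other 10.

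Of the kinetochore and checkpoint genes, Cenpf and Cenpe fell, and Bub1, Bub1b and Birc5 did not pass. Cenpf ran from 7.83 to 16.8 CPM in replicates 1-2, median 10.01, and from 4.43 to 12.1 in replicates 3-4, median 6.11, with a log2 fold change of -0.73 (SE 0.15, edgeR adjusted p = 0.00132), the largest among the members. Cenpe, a kinetochore motor, ran from 5.50 to 10.8 CPM, median 7.24, against 3.99 to 8.47, median 5.03. In replicates 3-4 the highest values of Cenpf and of several other mitotic genes were those of agrin replicate 3.

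Of the 5 spindle and cytokinesis genes, Kif20a, Kif11, Nusap1 and Prc1 fell and Tpx2 did not pass. Kif20a, a motor of the central spindle, ran from 13.0 to 20.9 CPM in replicates 1-2, median 17.6, and from 9.20 to 17.5 in replicates 3-4, median 12.4, with a log2 fold change of -0.43 (SE 0.10, edgeR adjusted p = 0.00175). Kif11 ran from 13.5 to 24.7 CPM, median 16.9, against 8.07 to 20.6, median 11.6. Nusap1, which stabilises spindle microtubules, and Prc1, which bundles them in the midzone, fell by 0.52 and 0.35 on the log2 scale. The mitotic chromosome genes Mki67, with a log2 fold change of -0.44 (SE 0.17), and Top2a, with one of -0.30 (SE 0.13), had edgeR adjusted p-values of 0.124 and 0.160.

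On the replication side, Mcm6, Mcm3 and Rrm2 rose. Mcm6 ran from 56.9 to 68.4 CPM in replicates 1-2, median 62.4, and from 66.8 to 80.7 in replicates 3-4, median 74.2, with a log2 fold change of 0.23 (SE 0.04, edgeR adjusted p = 0.000133). Rrm2 ran from 34.6 to 50.4 CPM, median 40.8, against 42.6 to 57.1, median 50.5, with a log2 fold change of 0.26 (SE 0.06, edgeR adjusted p = 0.00323). Mcm3 ran from 16.6 to 24.5 CPM, median 20.3, against 18.4 to 31.6, median 25.2. Rrm1 missed the threshold at a log2 fold change of 0.14 (SE 0.05, edgeR adjusted p = 0.0532), and so did Uhrf1, a chromatin factor of S phase, at 0.28 (SE 0.10, adjusted p = 0.0751). The 3 genes of S phase entry, Ccne1, Ccne2 and E2f1, lay between -0.06 and 0.06. Cdc45, a helicase activator, went with the mitotic genes in sign at -0.22 (SE 0.10, adjusted p = 0.169).

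**Figure D4:**
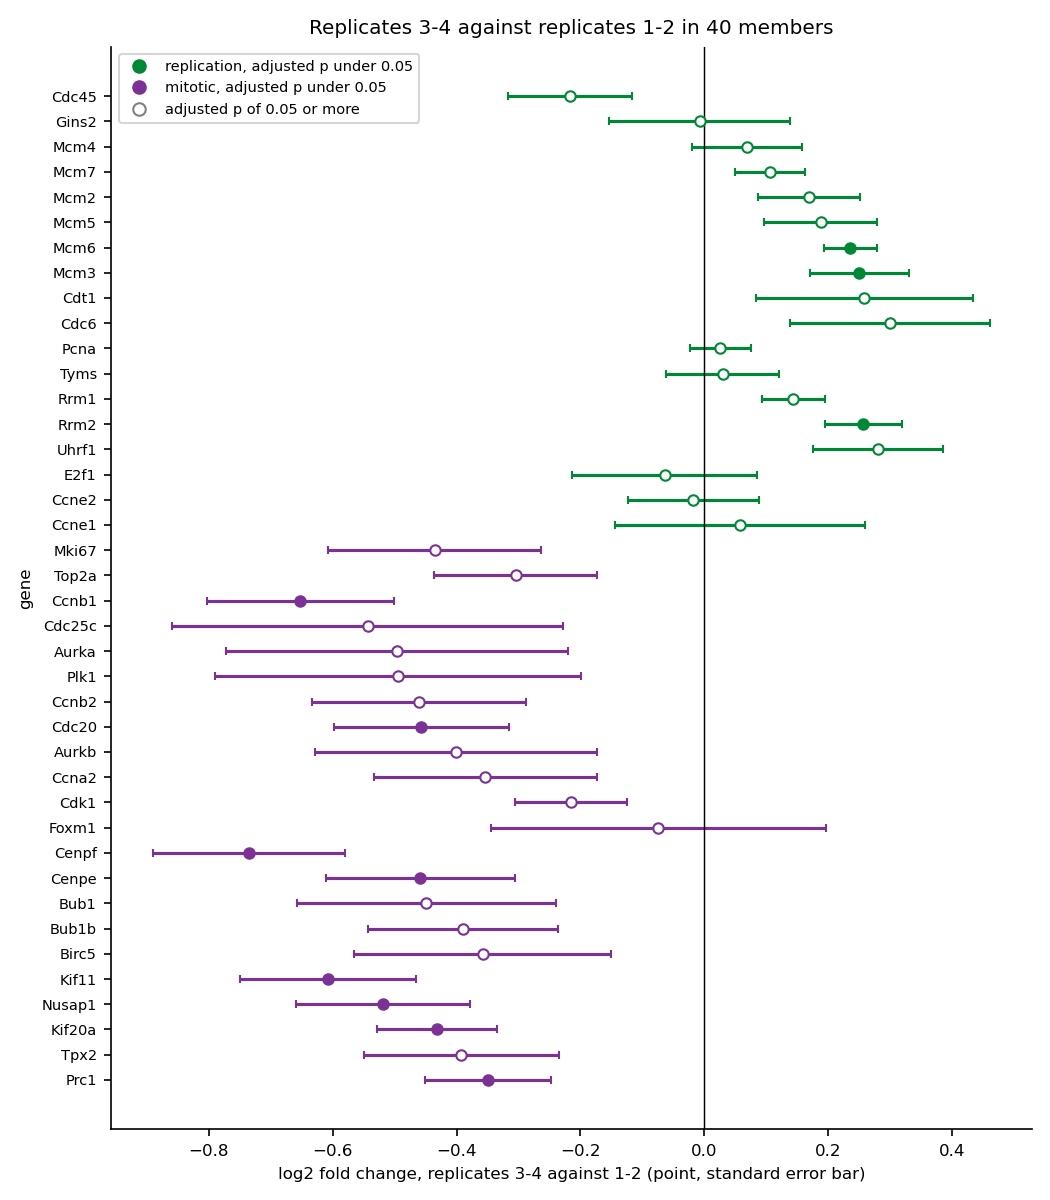
Log2 fold change of replicates 3-4 against replicates 1-2 for each member, with its standard error, grouped by role. Filled points have an adjusted p under 0.05, which are 8 mitotic genes on the negative side, from -0.73 for Cenpf to -0.35 for Prc1, and 3 replication genes on the positive side, from 0.23 to 0.26.

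By replicate number, the mitotic sum averaged 294 CPM over the 5 libraries of replicate 1, 338 over replicate 2, 265 over replicate 3 and 219 over replicate 4, and the replication sum averaged 442, 449, 499 and 480 CPM. Leaving out all libraries of replicate 4 left 1 member called, Mcm6, and leaving out those of replicate 2 left 4, Mcm6, Rrm1, Rrm2 and Cenpf, although 1171 and 1284 of all genes were still called, against 1908 with all libraries. Leaving out any other number or any single library gave 8 to 15 members. Without agrin replicate 3, 15 members were called, and without control replicate 2 and agrin with 13-3B5xb12 replicate 1, 13 were called, of which 9 were among the 11. When counts were summed per replicate number, 2 sums against 2, 16 members were called. The count over all genes moved too, from 1045 to 2101 over all left-out runs and from 1904 to 2611 over the other settings. It is not given singly for the runs with 13, 15 and 16 members. Those member counts thus do not show a rise beyond that of all genes.

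Within a treatment the same difference rests on 2 libraries against 2 and has no test. The median log2 ratio of replicates 3-4 to 1-2 over the mitotic genes was -0.80 in the control, 0.02 with bivalent 13-3B5, -0.31 with agrin, -0.38 where agrin was combined with 13-3B5xb12 and -0.77 where it was combined with 11-3F6xb12. All 22 mitotic genes were lower in replicates 3-4 in the control and with 11-3F6xb12, against 9 of 22 with bivalent 13-3B5. A term for unequal differences across treatments called 0 members and 1 of all 14605 genes in edgeR's quasi-likelihood test, and 6 members had an unadjusted p under 0.05, against 4.85% of all genes.

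Other genes of the cycle were counted in the same comparison, in which 13.1% of all genes were called, 7.13% lower and 5.93% higher, from lists chosen with earlier results known. Of 40 further proliferation genes, 5 fell, Kif2c (-1.03), Aspm (-0.71), Hmmr (-0.56), Knl1 (-0.49) and Ndc80 (-0.41), all spindle or kinetochore genes, and 2 rose, the replication factor Mcm10 (0.64) and the transcription factor E2f2 (0.52). Of the 15 inhibitors and pocket proteins tested, Cdkn1a, the p21 inhibitor that helps to hold myotubes out of the cycle, rose by 0.15 on the log2 scale, as did Ccng1. Cdkn1c, the p57 inhibitor, and Cdkn2d, the p19 inhibitor of D-type kinases, fell by 1.21 and 0.47. Of the 6 D cyclins and their kinases, Cdk4 and Cdk6 rose by 0.20 and 0.35 and the 3 D cyclins did not pass.

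The members also differed in how they moved together from library to library. After subtracting treatment means, the median Pearson correlation of log2 CPM over the 20 libraries was 0.65 over 231 pairs of mitotic genes, 0.20 over 153 pairs of replication genes and 0.03 over 396 mixed pairs. With the difference between the replicate sets also removed, these were 0.56, 0.17 and 0.30. The tightest mitotic pairs, at 0.94, included Mki67 with Top2a, Top2a with Prc1 and Kif20a with Nusap1. Among replication genes, Mcm6 went with Mcm7 at 0.74 and Rrm1 with Uhrf1 at 0.73, whereas Cdc45 had a median of -0.43 with the other replication genes and 0.32 with the mitotic ones. Ccne1 also leaned to the mitotic group, with a median of 0.44 against 0.30 with the replication genes. All pairs share libraries, scaling and depth, and these values are descriptions.

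**Figure D5:**
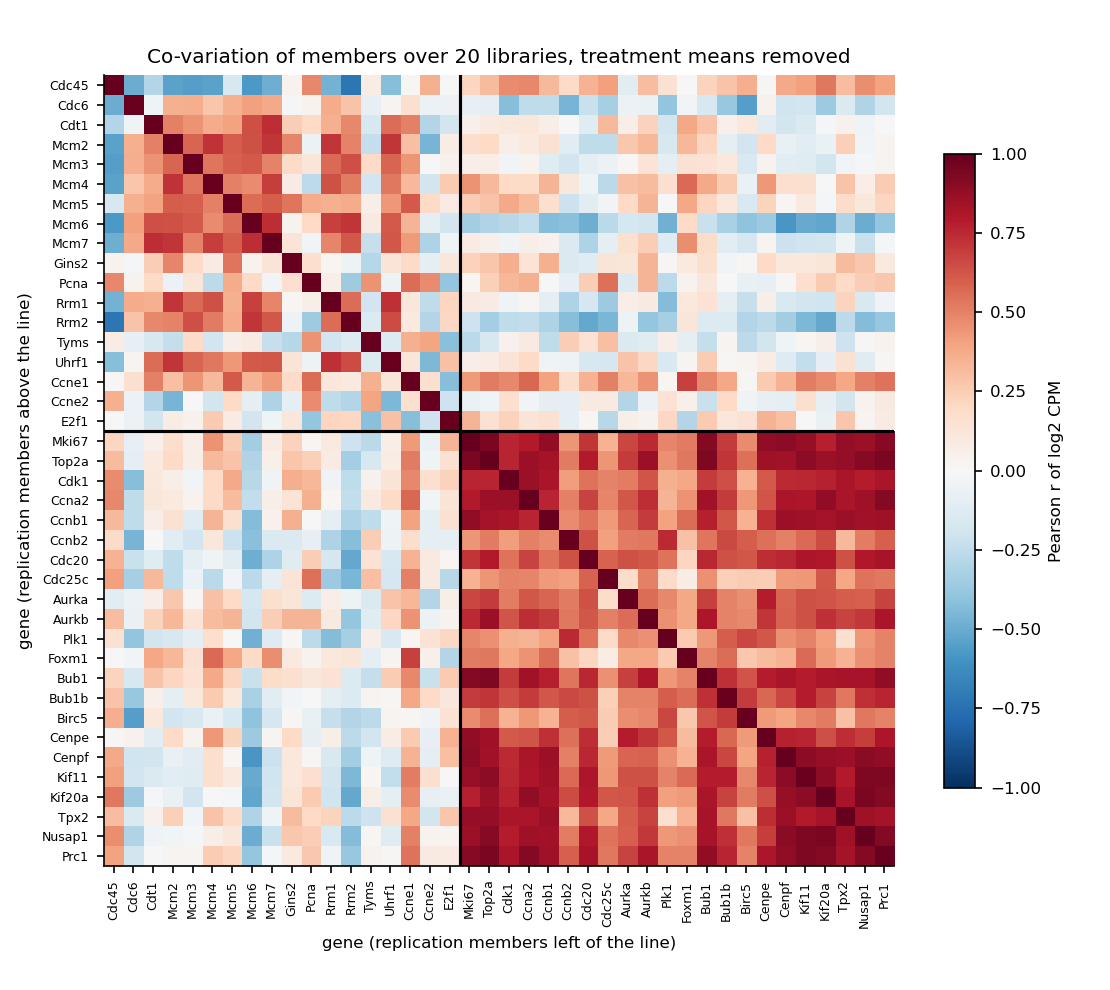
Pearson correlation of log2 CPM between members over 20 libraries after subtracting treatment means, with replication genes first and mitotic genes after the black lines. The mitotic block has a median of 0.65, the replication block 0.20 and the blocks between them 0.03.

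The description of the genes as a readout of dividing myoblasts was checked against lists of myoblast and reserve cell, myotube and fibroblast-like markers. The last list is only a set of genes, and fibroblasts were not shown to be in these cultures. Myotube markers were abundant, with a mean of 2326 CPM for the actin gene Acta1 and 581 CPM for Myog. The satellite cell factor Pax7 was at a mean of 1.65 CPM, Myf5 at 12.3 and Myod1 at 40.5. Over 11149 genes, the correlation with the mean log2 CPM of the mitotic members, treatment means removed, had a median of -0.04 and quartiles of -0.30 and 0.24. The 15 myoblast and reserve cell markers had a median of 0.18, with 10 positive, the 15 myotube markers a median of 0.53, with 11 positive, and the 7 fibroblast-like markers tested a median of 0.56, with 6 positive. With the replicate sets also removed, the medians were 0.06, 0.24 and 0.33. Single markers, picked after their values were seen, were Myf5 at -0.91 and the embryonic myosin Myh3 at 0.84. With the replicate sets removed they were at -0.87 and 0.86. Both ways Myf5 was the lowest of the myoblast and reserve cell list and Myh3 the highest of the myotube list, so neither stands for its list. With only treatment means removed, Spry1 of the first list was at 0.58 and Mymx of the second at -0.40. Bulk values do not place the RNA of the mitotic genes in a cell type.

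Summed marker levels differed between the replicate sets as well. The 15 myotube markers summed to between 17821 and 20399 CPM in replicates 1-2, median 18915, and between 15030 and 18536 in replicates 3-4, median 16252, the highest of the latter being agrin replicate 3. The 15 myoblast and reserve cell markers summed to between 2089 and 2295 CPM in replicates 1-2 and between 2310 and 2549 in replicates 3-4, without overlap. That sum rests on 2 abundant genes, Itga7, at a mean of 1509 CPM in replicates 1-2 and 1681 in replicates 3-4, and Sdc4, at 236 and 303 CPM, whereas 11 of the 15 markers had a negative log2 fold change. The 8 fibroblast-like markers summed to between 5047 and 5646 CPM in replicates 1-2 and between 4402 and 5337 in replicates 3-4. In the test across genes, in which 7.13% of all genes were lower and 5.93% higher, 5 of 15 myoblast and reserve cell markers fell and 3 rose, 4 of 15 myotube markers fell and 1 rose, and 3 of the 7 fibroblast-like markers tested fell. The part of these shifts, and of the shift in mt-Rnr2 given above, in the differences of the members was not tested. Beside this, the median log2 fold change of all genes was 0.01, 0.01, 0.01 and 0.00 over 4 groups of genes from the shortest to the longest, with median exon lengths of 1541 to 8758 bases.

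The genes outside the members whose pattern was most like theirs were found by correlation with the mean log2 CPM of the members, treatment means removed, over 20 libraries and 11112 genes. For the mitotic members they were Prkag3, a muscle subunit of AMP-activated kinase, at 0.96, the kinetochore gene Ndc80 at 0.94, Tgfb3 at 0.94, the linker histone H1f5 and the collagen Col8a1 at 0.93, Kif15, the histone H3c7, the muscle gene Xirp2, Hjurp and Smoc2, the last at 0.91. For the replication members they were the tubulin Tubb5 and Atad2 at 0.87, Ifi47, Adamtsl3, Tubb6, Brip1os, Pabpc1, Macc1, the polymerase subunit Pola1 and Fstl3, the last at 0.80. For all 40 members together the 10 began with H1f5 at 0.93, Kif15 at 0.92 and Ndc80 at 0.91, and also held Col8a1, Xirp2, Prkag3, Depdc1a, Tgfb3 and Myh3. The difference between the replicate sets was not removed from these correlations. The edgeR comparison of those sets called every gene named for the mitotic members, except H1f5, lower in replicates 3-4. Of those named for the replication members, it called Tubb5, Ifi47, Adamtsl3, Tubb6 and Pabpc1 higher. These genes were picked for a pattern that holds the difference between the sets, so such calls follow from the choice. The shares of all genes, 7.13% lower and 5.93% higher, are therefore no measure for them.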

How the data were processed

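The deposited table holds 1 whole-number read count per gene and library, made by the authors and not normalized. Per the labels' protocols, ribosomal RNA was removed and a kit for stranded libraries from total RNA was used. The submitters' processing notes name Trim Galore 0.6.6, cutadapt 2.10, STAR 2.7.6a, HTSeq 0.12.4, DESeq2 1.32.0 and GRCm38. The annotation and the strand setting are not given in the sources used here, so reads of overlapping or antisense genes and of pseudogene copies may be assigned either way.

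In R 4.3.3, edgeR 4.0.16 kept genes by filterByExpr (minimum count 10, minimum total 15), scaled libraries by TMM, and fitted 1 robust quasi-likelihood model to all 20 libraries with treatment as factor, leaving 15 residual degrees of freedom. The comparison of replicates 3-4 with 1-2 added that term, leaving 14. Tests were two-sided, with p-values adjusted by Benjamini-Hochberg over 14605 genes and a threshold of 0.05. The standard error is the log2 fold change divided by the root of F. Log2 CPM used a prior count of 2. DESeq2 1.42.0 was an alternative, with other filters, scalings and left-out libraries. Both fits were tested on simulated data, with counts drawn independently for each gene and library. That test does not cover differences shared by libraries of one replicate number, and its outcome is not given here. Within each treatment no pair of replicates agreed within sampling noise (lowest chi-square per gene 5.17 over 30 pairs).

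Replicate numbers come from the sample titles. Deviations of same-numbered libraries correlated above 0.1 in every pair for 4 of the 5 comparisons, between 0.103 and 0.325, and not for agrin against control, where the lowest was 0.00824. The members and lists were chosen with earlier results of these data known. Named in each comparison were the members called, with statistics for the 5 with the smallest p, or, where none was called, the 3 with the smallest p. A set of 12 members was given library by library, and the 10 most alike genes were named, apart from 1 that is not reported here. Other names were chosen after their values were seen. Promoters are RefSeq windows on GRCm38.p6, and exon lengths and gene models come from GENCODE M21.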

Additional observations from a re-analysis of the deposited data

Results flagged for a closer look

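In 70 groups of 4 libraries (the 12 members given library by library and both sums, in 5 treatments), 4 held a library whose gap to its nearest neighbour exceeded 0.829 of the group's range, Dixon's 95% critical value, and chance gives 3.5. Mcm5 in agrin replicate 3 was at 37.9 CPM, with the other agrin libraries between 22.2 and 24.6. Mcm5 with agrin and 11-3F6xb12 was at 30.8 CPM in replicate 2, with the others between 22.3 and 22.6. E2f1 in the same treatment was at 2.32 CPM in replicate 1, with the others between 3.32 and 3.51. The summed replication members with agrin and 13-3B5xb12 were at 418.5 CPM in replicate 2, with the others between 487 and 499.6.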

How the results depend on the processing

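In the comparisons between treatments, the count of members called was 0 under every alternative run (8 to 20 left-out libraries and 7 or 8 other settings each), except that without a filter on low counts the test for any difference among the 5 treatments called 1 member, Top2a, a gene named after its value was seen. With the replicate number as a block, pairing libraries of one number, 0 members were called in each comparison, and 7, 1, 1, 6, 3 and 1 had an unadjusted p under 0.05, in the order of the report. Of 20 libraries, 13 correlated best with one of their own number, and 20 with one of their own replicate set. In the comparison of replicates 3-4 with 1-2, no filter on low counts gave 18 members in place of 11, and left-out replicates and libraries gave 1 to 15. Without replicate 2 there were 4 and without replicate 4 there was 1, where fewer libraries remain and 1284 and 1171 genes were called. Other settings gave 11 to 16 members. Genes called ran from 1045 to 2101 over the left-out runs, against 1908 in the main run. They ran from 1904 to 2611 over the other settings, the run with no filter included. Over all 31 settings Mcm6 was called in each, while Cenpe missed the threshold in 15, Mcm3 in 11 and Cdc20 in 9, and no member named changed sign. Members of few counts, Cdc25c and Plk1 above all, are limited by depth.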
